A study of Homo sapiens with 6 samples.

Results

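MHC class I antigen presentation was followed through 9 genes in HEK293 cells that had been grown beside cells producing reactive oxygen species (ROS). The members were HLA-B, HLA-C, HLA-E, B2M, TAP1, TAP2, TAPBP, PSMB8 and PSMB9. They were taken by name from the 23686 genes of the count tables as components of this pathway, and all 9 had enough reads to be tested. HEK293, an established cell line, derives from human embryonic kidney. The series holds 6 libraries of GFP-positive HEK293 cells, all collected by fluorescence-activated cell sorting. The 3 co-culture libraries came from cells kept for 10 h with HEK293 cells that carried DAAO, in 25 µM D-alanine. DAAO commonly stands for the enzyme D-amino acid oxidase, which releases hydrogen peroxide as it oxidizes D-alanine. The 3 control libraries are labelled Wt controls and came from GFP-positive cells sorted in the same way. One treatment text is given for both groups, so the labels do not say whether the controls received D-alanine or had neighbours. All sampled cells belong to 1 line, and nothing in the labels says whether the libraries of a group came from separate cultures, so the p-values measure the spread between these libraries, which may be technical.

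MHC class I molecules display short peptides from the cell's own proteins to CD8 T cells, and they engage inhibitory receptors of natural killer cells. Each molecule is a heavy chain, encoded by an HLA gene, held together with beta-2 microglobulin and a peptide. The peptides are cut by the proteasome, in which interferon can exchange constitutive catalytic subunits for the immunoproteasome subunits PSMB8 and PSMB9, and are pumped into the endoplasmic reticulum by the TAP1-TAP2 transporter. Tapasin, the product of TAPBP, bridges the transporter to empty class I molecules. Transcription of these genes is known to respond to interferon through IRF factors, to NF-kB, and to the class I transactivator NLRC5. Epithelial cell lines such as HEK293 express class I molecules at a basal level without interferon.

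The start-site sequences of the members show elements of these kinds, and they are printed because the transcription factors known to bind such elements are among the regulators measured here. RefSeq sequences of GRCh38.p14 were found for 8 of the 9 members in 10 windows, each running from 250 bases before to 50 bases after an annotated start. HLA-E was not among them. Capitals mark matches, on either strand, to the IRF core AANNGAAA, the interferon-stimulated response element (ISRE, searched as GAAA, 2 bases of any kind and GAAA) or the NF-kB pattern (GGG, 2 bases of any kind, TT, 1 base of any kind and CC). Every ISRE match contains an IRF core match. The stretches of HLA-B (chr6:31357225-31357364, minus strand), HLA-C (chr6:31272138-31272277, minus), B2M (chr15:44711367-44711476, plus), TAP1 (chr6:32853765-32853844, minus), TAP2 (chr6:32838780-32838809, minus) and TAPBP (chr6:33314079-33314138, minus) all lie upstream of the start and read as follows.
HLA-B: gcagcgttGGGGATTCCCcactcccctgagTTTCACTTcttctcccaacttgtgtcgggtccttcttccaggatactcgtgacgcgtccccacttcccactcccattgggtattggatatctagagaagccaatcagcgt
HLA-C: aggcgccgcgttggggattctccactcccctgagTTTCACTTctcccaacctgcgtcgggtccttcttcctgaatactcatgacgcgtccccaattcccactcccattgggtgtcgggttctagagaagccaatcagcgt
B2M: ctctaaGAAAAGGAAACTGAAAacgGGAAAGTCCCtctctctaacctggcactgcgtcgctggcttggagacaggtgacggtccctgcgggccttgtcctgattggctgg
TAP1: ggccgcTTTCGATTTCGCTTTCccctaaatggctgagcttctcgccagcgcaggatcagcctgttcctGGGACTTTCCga
TAP2: ggctggggAAGCGAAAGCGAAAgctgcccg
TAPBP: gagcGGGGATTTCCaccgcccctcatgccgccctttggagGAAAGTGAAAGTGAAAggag

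An IRF core was present for 7 of the 8 members with a sequence, all but PSMB9, against 22.8% of 35116 RefSeq windows of the same length. The ISRE pattern was present for B2M, TAP1, TAP2, TAPBP and PSMB8, against 3.57% of all windows. The NF-kB pattern was present for HLA-B, B2M, TAP1 and TAPBP, against 5.68% of all windows. The CCAAT box, searched as ATTGG on both strands, was present for HLA-B, HLA-C, B2M, TAP1 and PSMB9, against 34.6%. These are counts of genes with a match in any window, while the RefSeq shares are per window. Per window, the 4 patterns in this order matched 7, 5, 4 and 5 of the 10 member windows. TAP1 and PSMB9 are neighbours transcribed in opposite directions, and their start windows overlap by 13 bases. These matches are letters in a window and were not tested for binding.

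**Figure D1:**
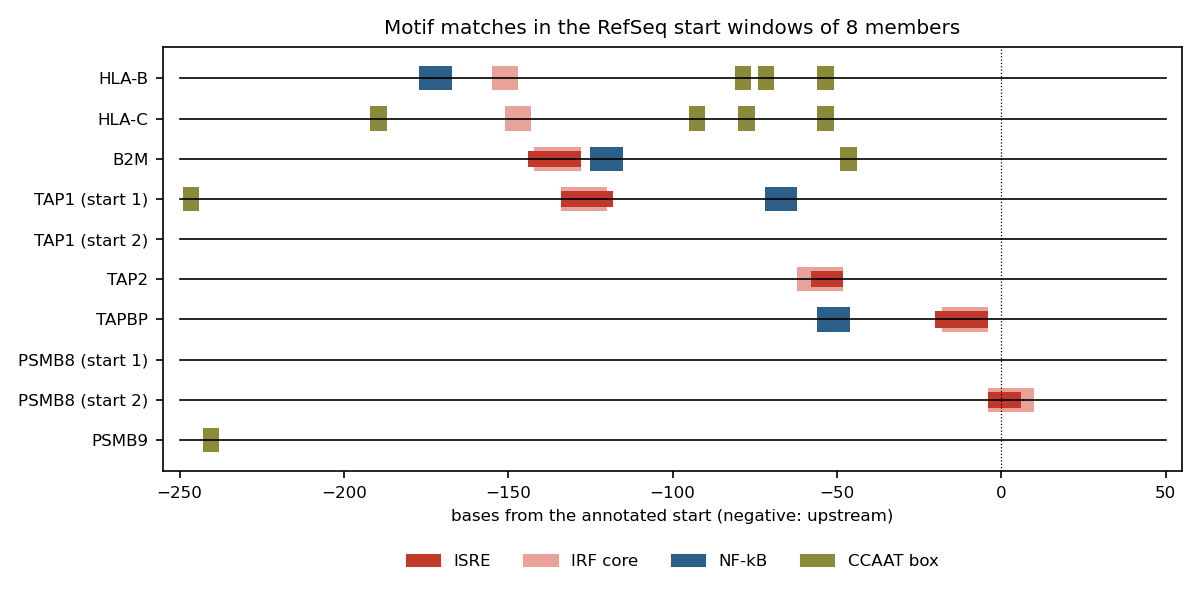
Motif matches in the RefSeq start windows of 8 members, with distance from the annotated start in bases on the x axis and 1 line per window (TAP1 and PSMB8 have 2 starts each). Coloured boxes are matches; the ISRE boxes of B2M, TAP1, TAP2 and TAPBP lie upstream of the start, and that of PSMB8 spans its second start.

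The libraries held between 19091085 and 36250314 reads assigned to genes on the reverse strand, so 1 read was worth 0.0279 to 0.0522 CPM. CPM is a gene's read count relative to the library total, here after TMM scaling in edgeR. The median share of reads on the forward strand was 0.124% and 0.211% in co-culture libraries 2 and 3 and 1.57% to 1.76% in the other 4 libraries, a split that leaves co-culture library 1 as the sole co-culture library of its class. Control 1 stood apart for the members: it was the highest of the 6 libraries for 7 of 9 members, and for 24.5% of all tested genes. Values without control 1, and with strand class added to the model, are therefore given beside the results they touch.

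None of the 9 members passed the test of co-culture against control. In edgeR's quasi-likelihood test with Benjamini-Hochberg adjustment over 14582 genes, 0 of 9 had an adjusted p under 0.05, where 4.83% of all tested genes did (2.17% lower and 2.66% higher in co-culture). Two-sided unadjusted p-values were under 0.05 for 2 members, HLA-E and PSMB8, against 23.2% of all tested genes. DESeq2 and limma-voom also called 0 members, with 2 and 1 at an unadjusted p under 0.05. All 9 estimates were below 0, with log2 fold changes (co-culture minus control) from -0.07 for TAP2 to -0.78 for PSMB8. The median was -0.19, and that of all tested genes was -0.0022. The groups did not overlap for HLA-E, B2M and PSMB8, all lower in co-culture, which is 3 of 9 members against 15.0% of tested genes that did not overlap and were lower (29.3% in either direction). Without control 1 the median of the members was -0.06 and the number called was again 0, while 3069 genes passed over the whole series (704 with all 6 libraries). With strand class added to the model it was -0.23, again with 0 called.

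**Figure D2:**
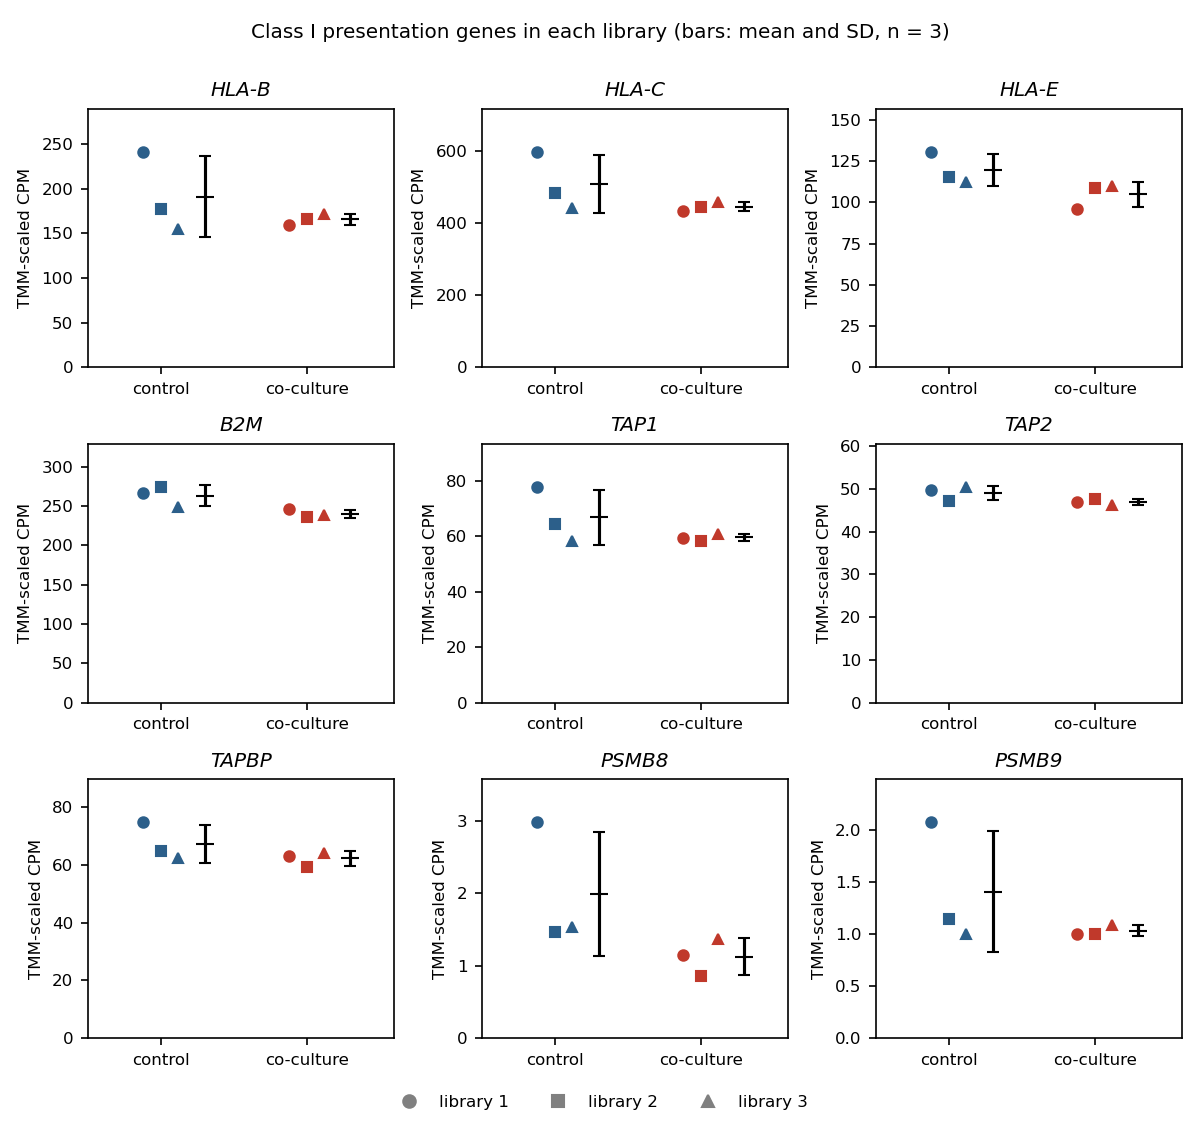
TMM-scaled CPM of the 9 members in each library, 1 panel per gene with its own axis from 0; symbols mark the library number, and bars give the mean and SD of 3 libraries. Control 1 (blue circle) is the highest point in 7 panels, and the co-culture libraries of PSMB8 run from 0.855 to 1.37 CPM, below all 3 controls.

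The heavy chain genes HLA-B and HLA-C, which encode classical peptide-presenting chains, differed more among the controls than between the groups. HLA-B stood at 159, 166 and 172 CPM in co-culture libraries 1, 2 and 3 and at 241, 177 and 154 CPM in controls 1, 2 and 3. Control 1 was high and control 3 was the lowest of all 6, so the groups overlapped. The log2 fold change was -0.20 (edgeR adjusted p 0.447, SE 0.15), with a 95% interval from -0.54 to 0.13. Without control 1 it was 0.0031, with an edgeR adjusted p of 0.978. HLA-C, the most abundant member, stood at 433, 446 and 459 CPM in co-culture and at 599, 486 and 442 CPM in the controls. Again control 1 was high and control 3 lay inside the co-culture range. Its log2 fold change was -0.19 (edgeR adjusted p 0.278, SE 0.10), with an interval from -0.41 to 0.03, and it was -0.06 without control 1. Heavy chain genes are similar in sequence and vary between people, so the assignment of reads among them, and against a reference allele, is uncertain.

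HLA-E encodes a nonclassical heavy chain that presents leader peptides of other class I chains to receptors on natural killer cells. It stood at 96.2, 109 and 110 CPM in co-culture and at 131, 115 and 113 CPM in the controls. Every control lay above every co-culture library, by 110 against 113 CPM at the nearest. The log2 fold change was -0.19 (SE 0.08, unadjusted p 0.0310 and adjusted p 0.168 in edgeR), and -0.12 without control 1. B2M, which encodes the light chain shared by all these molecules, stood at 246, 236 and 239 CPM in co-culture and at 267, 274 and 248 CPM in the controls. The groups did not overlap, but co-culture library 1 and control 3 were separated by 246 against 248 CPM. The fold of co-culture over control was 0.914, with a 95% interval from 0.833 to 1.00 and an edgeR adjusted p of 0.225. B2M did not have its highest value in control 1, and without that library its log2 fold change moved from -0.13 to -0.12.

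For the transporter and its bridging protein the groups overlapped in every case. TAP1, which with TAP2 forms the peptide pump, stood at 59.5, 58.3 and 60.8 CPM in co-culture and at 77.7, 64.4 and 58.3 CPM in the controls, with control 1 high and control 3 level with the lowest co-culture library. Its log2 fold change was -0.16 (edgeR adjusted p 0.329, SE 0.09) and -0.04 without control 1. The strand-aware count of TAP1 was 1.26 to 1.35 times the count made without regard to strand in every library, and with the latter 0 members passed as well. TAP2, the partner of TAP1, stood at 47.0, 47.6 and 46.3 CPM in co-culture and at 49.6, 47.3 and 50.4 CPM in the controls. Co-culture library 2 lay above control 2, and the log2 fold change was -0.07 with a 95% interval from -0.20 to 0.07 (edgeR adjusted p 0.572). TAPBP stood at 63.1, 59.3 and 64.1 CPM in co-culture and at 74.7, 64.7 and 62.3 CPM in the controls, with control 3 inside the co-culture range. Its log2 fold change was -0.11 (edgeR adjusted p 0.422, SE 0.08) and -0.03 without control 1. Reads on the forward strand made up 9.88% to 13.8% of the reads over TAPBP, and these are not in the values above.

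The immunoproteasome subunits PSMB8 and PSMB9 were the least abundant members, with 18 to 59 and 20 to 41 reads per library. PSMB8, which replaces the constitutive subunit PSMB5, stood at 1.15, 0.855 and 1.37 CPM in co-culture and at 2.98, 1.46 and 1.53 CPM in the controls. All controls lay above all co-culture libraries, and control 1 stood well above the other two. Exact Poisson 95% intervals, which cover counting error only, ran from 2.27 to 3.85 CPM in control 1 and from 0.971 to 2.11 CPM in control 2, and the latter overlapped that of co-culture library 3 (1.01 to 1.81 CPM). The log2 fold change of PSMB8 was -0.78 (SE 0.32, unadjusted p 0.0348 and adjusted p 0.178 in edgeR), with a 95% interval from -1.50 to -0.07. It was -0.37 without control 1, with an edgeR adjusted p of 0.351. PSMB9, which replaces PSMB6, stood at 1.00, 0.998 and 1.09 CPM in co-culture and at 2.07, 1.15 and 0.997 CPM in the controls. Here control 3 was level with the co-culture libraries, and the log2 fold change of -0.42 (edgeR adjusted p 0.452, SE 0.31) became -0.03 without control 1.

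The share of immunoproteasome transcripts was small in both groups. For each 100 reads of PSMB5 there were 0.790, 0.547 and 0.824 reads of PSMB8 in co-culture libraries 1, 2 and 3 and 1.95, 0.880 and 0.890 in controls 1, 2 and 3. The exact two-sided permutation test over the 6 libraries gave p = 0.1, the smallest value that 3 against 3 allows, and 0.3 after Benjamini-Hochberg adjustment over the 3 ratios tested. Reads of PSMB9 per 100 reads of PSMB6 were 0.676, 0.649 and 0.672 in co-culture and 1.39, 0.702 and 0.607 in the controls (exact permutation p = 0.7, adjusted 0.7). PSMB10, the third immunoproteasome subunit, which replaces PSMB7, stood at 3.38, 4.30 and 3.77 reads per 100 reads of PSMB7 in co-culture and at 2.62, 3.49 and 3.45 in the controls (exact permutation p = 0.3, adjusted 0.45). The ratio of PSMB10 was thus lowest in control 1, the library in which the ratios of PSMB8 and PSMB9 were highest. The constitutive subunits PSMB5, PSMB6 and PSMB7 differed between the groups by -0.07, -0.04 and -0.03 on the log2 scale, and none passed (edgeR adjusted p 0.594, 0.751 and 0.796).

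Per length, the members spanned a wide range of levels. Divided by the exon length of each gene in GENCODE release 29, the mean level of HLA-C in the controls was 328 ± 52.1 CPM per kilobase (SD, n = 3). HLA-B followed at 120 ± 28.5 and B2M at 111 ± 5.57 CPM per kilobase, and the libraries of these neighbours overlapped (97.3 to 152 against 99.2 to 115 over all 6). HLA-E stood at 46.0 ± 3.76, TAP1 at 22.6 ± 3.35, TAPBP at 16.0 ± 1.57 and TAP2 at 7.95 ± 0.268 CPM per kilobase, and the ranges of these 4 over the 6 libraries did not overlap. PSMB9 and PSMB8 were lowest, at 1.53 ± 0.632 and 1.29 ± 0.554 CPM per kilobase, and overlapped each other. The order was the same in co-culture, with HLA-C at 287 ± 8.43 and PSMB8 at 0.726 ± 0.166 CPM per kilobase. The gene models the authors counted on may differ from these lengths.

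**Figure D3:**
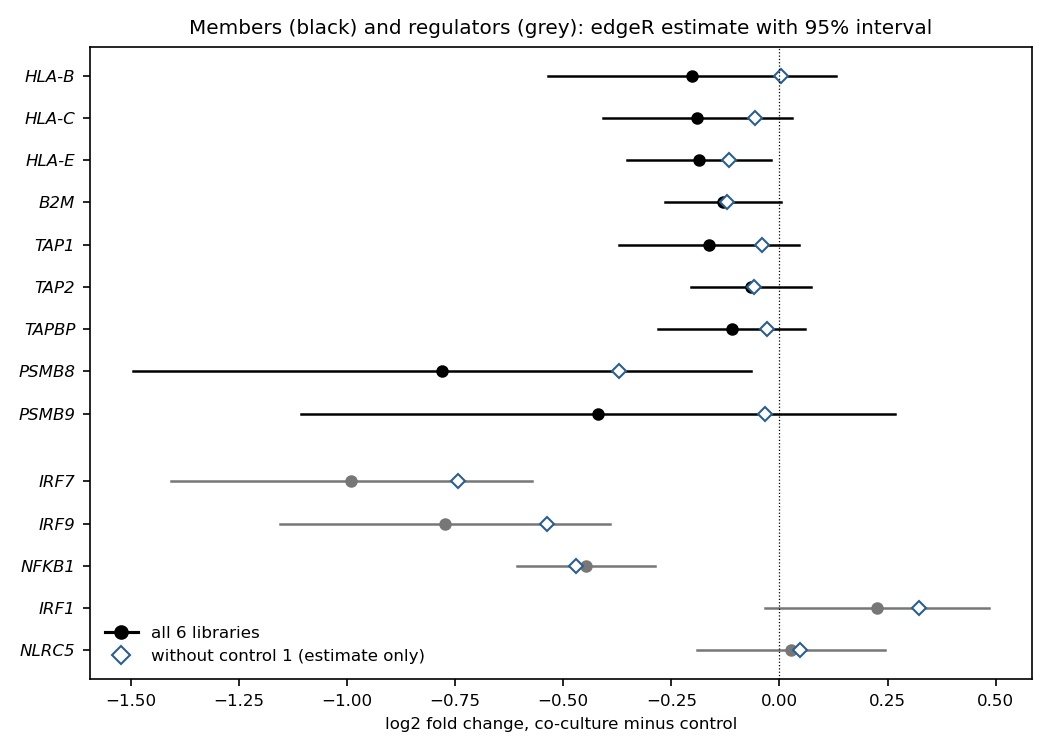
Log2 fold change (co-culture minus control, x axis) of the 9 members in black and of 5 regulators in grey, from edgeR, with 95% intervals as lines; open diamonds are the estimates without control 1. Without control 1 the estimate of HLA-B is 0.0031 and those of TAP1, TAPBP and PSMB9 lie between -0.04 and -0.03, while IRF7, IRF9 and NFKB1 stay between -0.74 and -0.47.

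The genes listed as regulators of class I transcription, not all of them transcription factors, included 4 that fell in co-culture. Of 22 regulators listed, 21 were tested, and 4 were lower and 0 higher past the threshold, against 2.17% lower and 2.66% higher among all tested genes. The median log2 fold change was -0.05. IRF7 stood at 8.01, 9.83 and 8.91 CPM in co-culture and at 23.4, 16.5 and 13.5 CPM in the controls, and IRF9 at 8.21, 8.84 and 7.74 against 18.5, 11.4 and 12.4 CPM. IRF7, an interferon-inducible factor, and IRF9, a DNA-binding subunit of the complex that reads the ISRE, fell by 0.99 and 0.77 on the log2 scale (edgeR adjusted p 0.0214 and 0.0333). NFKB1, which encodes the p50 subunit of NF-kB, fell from 34.1 ± 1.55 to 25.0 ± 0.864 CPM (SD, n = 3 each), so that it fell by 0.45 on the log2 scale (edgeR adjusted p 0.00888, SE 0.07). For these 3 genes every control lay above every co-culture library, as was so for 15.0% of all tested genes. IRF1, a factor known to act on class I promoters, stood at 11.4, 10.9 and 11.9 CPM in co-culture and at 11.1, 8.76 and 9.48 CPM in the controls, with a log2 fold change of 0.23 (edgeR adjusted p 0.281), and without control 1 it was higher by 0.32 (edgeR adjusted p 0.0439; range over 15 settings 0.0439 to 0.657). NLRC5 stood at 11.9, 11.9 and 12.3 against 12.2, 11.1 and 12.2 CPM, with a log2 fold change of 0.03 and a 95% interval from -0.19 to 0.24.

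The levels were also set against controls 2 and 3 alone. The mean co-culture level was 0.594 times the mean of these 2 controls for IRF7, 0.694 times for IRF9 and 0.722 times for NFKB1, the regulators already called lower, and 1.25 times for IRF1 and 1.03 times for NLRC5. For PSMB8 it was 0.751 times, close to NFKB1, and for the other 8 members between 0.920 and 1.00 times. Control 1 in turn was 1.55 times the mean of controls 2 and 3 for both IRF7 and IRF9 and 0.953 times for NFKB1. For the members that ratio was 1.46 for HLA-B, 1.29 for HLA-C, 1.27 for TAP1, 1.99 for PSMB8 and 1.93 for PSMB9, and it was 1.02 for both B2M and TAP2. Without control 1 the regulators called lower stood at -0.74 (IRF7), -0.54 (IRF9) and -0.47 (NFKB1), with edgeR adjusted p-values up to 0.00272. The 3 calls were lost with strand class added to the model, at -1.15, -0.78 and -0.50 in the same order (edgeR adjusted p 0.164 to 0.312), and without co-culture library 1 or 2 or control 2. Without co-culture library 3, IRF7 and IRF9 lost theirs (edgeR adjusted p 0.0613 and 0.109). With the replicate number as a block, IRF7 and IRF9 lost theirs (edgeR adjusted p 0.0502 and 0.0714). Whether the fall of a regulator differs from that of a member was not tested.

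**Figure D4:**
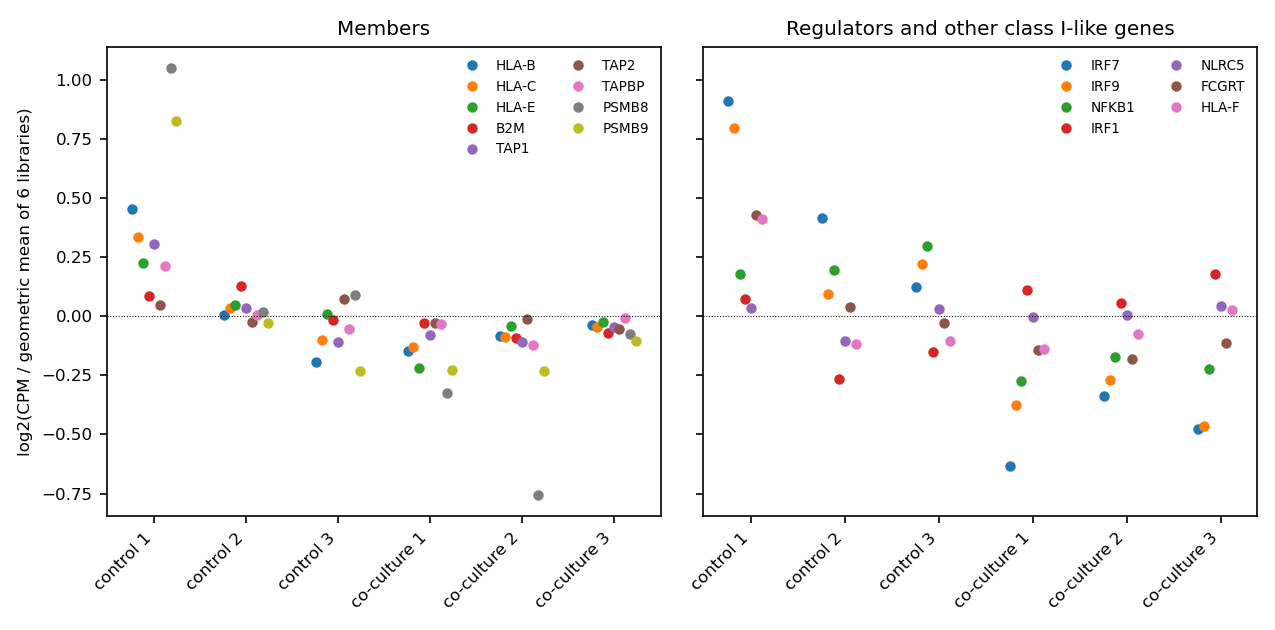
Level of each gene in each library as log2 of CPM over the geometric mean of the 6 libraries, for the 9 members (left) and for 5 regulators, FCGRT and HLA-F (right). Control 1 is highest for 7 members, and controls 2 and 3 lie near the co-culture libraries for most members but above them for IRF7, IRF9 and NFKB1.

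The steps before and after the transporter showed no call in either direction. Of 11 genes for peptide loading and trimming in the endoplasmic reticulum, 10 were tested and 0 passed (0 at an unadjusted p under 0.05, edgeR), with a median of 0.04. Without control 1 the median was -0.00063, and the chaperone HSPA5 was lower (-0.18, edgeR adjusted p 0.0168). That fit called 3069 genes over the whole series, against 704 with all 6 libraries. The chaperones CALR and CANX, which hold heavy chains during folding, had log2 fold changes of -0.04 and 0.04, and PDIA3, their disulfide-handling partner, 0.04. The trimming peptidases ERAP1 and ERAP2 stood at 0.01 and 0.11 (edgeR adjusted p 0.931 and 0.344). Of 7 cytosolic peptidases, all were tested and 0 passed in edgeR (2 higher at an unadjusted p under 0.05), with a median of 0.05. Of 9 proteasome genes (PSMB10, the constitutive counterparts, activators and the assembly factor POMP), 0 passed in edgeR, 0 had an unadjusted p under 0.05, and the median was -0.03. DESeq2 called 27 genes and limma-voom 14 over all pathway lists, all of them lower. In edgeR 14 of 118 passed, also all lower, where 2.17% of all tested genes were called lower.

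**Figure D5:**
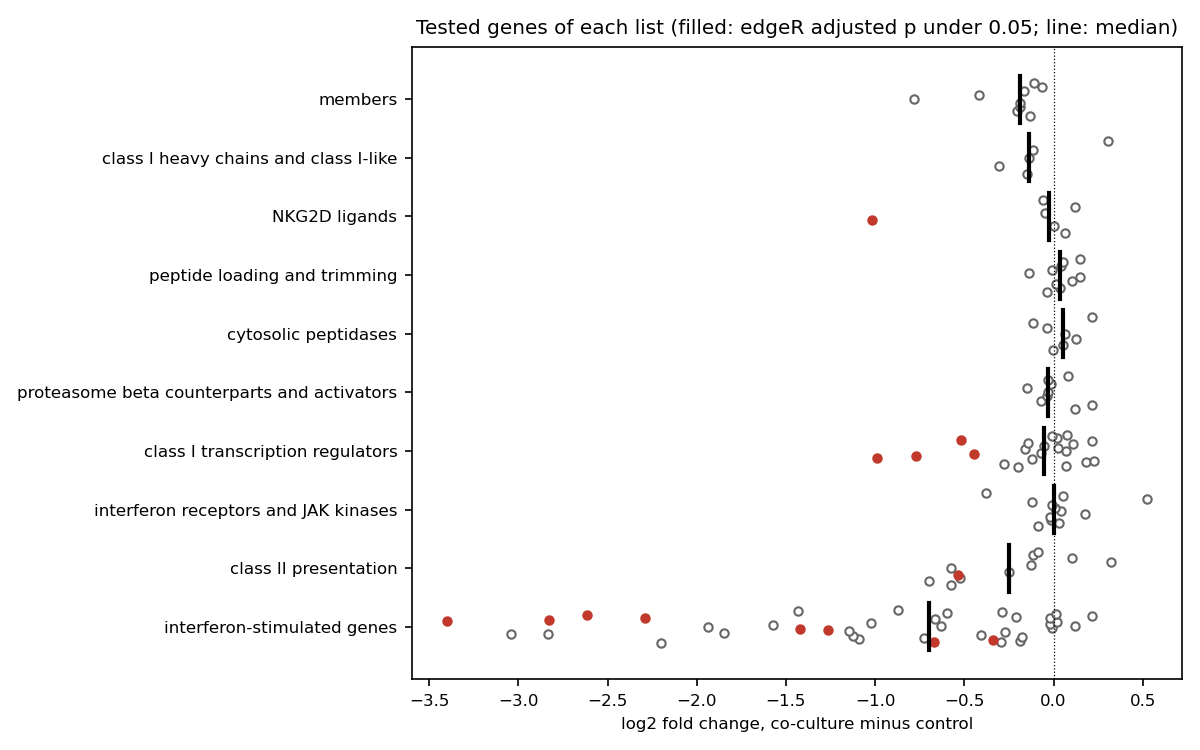
Log2 fold change (co-culture minus control, x axis) of every tested gene in the members and in 9 lists; filled points have an edgeR adjusted p under 0.05 and black lines are list medians. All 9 members lie below 0 and none is filled, while 8 of 38 interferon-stimulated genes are filled, all lower.

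Upstream signalling genes and the wider interferon response were measured in the same fit. Of 13 interferon receptor and JAK pathway genes, 12 were tested and 0 passed in edgeR (3 at an unadjusted p under 0.05), with a median of 0.00015. Without control 1, 4 of the 12 passed in edgeR: SOCS3 (0.71) and IFNLR1 (0.22) were higher, and USP18 (-0.27) and IFNAR1 (-0.19) were lower. Over the whole series 3069 genes passed without control 1, against 704 with all 6 libraries. Interferon genes were at or near 0: of 10 listed, 4 had no reverse-strand reads in any library and none had enough to be tested. Their summed levels were 0.0559 to 0.238 CPM in co-culture and 0.156 to 0.404 CPM in the controls. Of 40 interferon-stimulated genes, 38 were tested, and 8 were lower and 0 higher past the threshold, against 2.17% lower and 2.66% higher among all tested genes. Their median log2 fold change was -0.70. Without control 1 the median was -0.43, with 18 lower, and with strand class added to the model it was -0.69, with 0 called. The count of lower genes was 17 without control 3, and 1, 0 and 2 without co-culture library 1, 2 and 3 and 1 without control 2. OAS1 and OAS2, antiviral sensors of double-stranded RNA, fell by 3.40 and 2.83 on the log2 scale (edgeR adjusted p 0.0194 and 0.00547). RSAD2, OASL, IFIT3 and IFIT2, which encode antiviral proteins, fell by 2.62, 2.29, 1.42 and 1.26 (edgeR adjusted p 0.0159, 0.0497, 0.0345 and 0.0210). Some of these rest on few reads. In co-culture libraries 1, 2 and 3 against controls 1, 2 and 3, OAS1 had 6, 4 and 10 against 95, 52 and 27 reads. OAS2 had 10, 8 and 11 against 84, 47 and 43, and OASL 2, 4 and 11 against 39, 16 and 14. RSAD2 had 15, 12 and 28 against 150, 62 and 65. Control 1 stood above the mean of controls 2 and 3 for all of these genes, from 1.69 times for IFIT2 to 2.87 times for OASL. OASL passed in 4 of the 14 other settings in which it was tested.

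Other class I-like heavy chains, some of which also pair with beta-2 microglobulin, gave 5 tested genes of 8, of which 0 passed in edgeR (2 at an unadjusted p under 0.05), with a median of -0.14. Without control 1 the filter kept 6 of them, the median was 0.14, and PROCR, the endothelial protein C receptor, was higher (0.36, edgeR adjusted p 0.00718). In that fit 3069 genes passed over the whole series, against 704 with all 6 libraries. FCGRT, which encodes the heavy chain of the neonatal Fc receptor, stood at 39.9, 38.8 and 40.7 CPM in co-culture and at 59.2, 45.2 and 43.2 CPM in the controls, with no overlap. Its log2 fold change was -0.30 (edgeR adjusted p 0.129, SE 0.11) and -0.15 without control 1. It passed the threshold without control 3, at -0.39 (edgeR adjusted p 0.0463). HLA-F stood at 24.9, 25.9 and 27.9 against 36.3, 25.2 and 25.5 CPM, and its log2 fold change of -0.14 became 0.05 without control 1. HLA-G had 1 read in all, in control 1. Among 11640 other genes averaging 5 CPM or more, the 5 whose log2 CPM over the 6 libraries was most like the mean profile of the members were PNPLA2, C14orf159, FCGRT, MAP1LC3A and TSG101, with Pearson coefficients of 0.998, 0.998, 0.997, 0.996 and 0.996. These coefficients describe 6 libraries in which control 1 is the extreme point, and the genes share library depth and scaling.

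Markers were read to check the label and other cell types. All 10 HEK293 and kidney-lineage markers were expressed, with summed levels of 2554 to 2765 CPM in co-culture and 2140 to 2214 CPM in the controls; VIM was higher in co-culture (log2 fold change 0.40, edgeR adjusted p 0.00793). Of 12 immune cell markers, CD3E, CD3D, MS4A1, FCGR3A and NKG7 had 0 reverse-strand reads in all libraries. NKG7 had 2 to 18 reads per library on the forward strand. PTPRC stood at or below 0.192 CPM, and CD14 ran from 1.15 to 1.76 CPM. Of the 2 tested, CD68 was higher and CD14 lower, and neither passed (edgeR adjusted p 0.284 and 0.630). ITGAX, with too few reads to be tested, had 9, 13 and 16 reads in co-culture against 4, 2 and 3 in the controls. The summed level of the 12 immune cell markers was 12.3 to 13.7 CPM in co-culture and 9.63 to 12.4 CPM in the controls, most of it from CD68. CLDN5, in the endothelial list, had 0 reverse-strand reads in all libraries and 2 to 18 per library on the forward strand. That list summed to 1.50 to 2.57 CPM in co-culture against 1.62 to 2.07 CPM in the controls. In the fibroblast list, with summed levels of 49.2 to 53.6 CPM in co-culture and 44.8 to 59.8 CPM in the controls, 3 genes were tested. LUM was lower in co-culture (-0.67, edgeR adjusted p 0.0293), while COL1A1, the most abundant of the list, stood at 41.2, 39.2 and 44.4 against 40.2, 31.8 and 31.0 CPM (0.28, edgeR adjusted p 0.131) and COL3A1 at -0.95 (edgeR adjusted p 0.159). DCN and COL1A2 were at or below 0.404 CPM. The part of these differences in the results was not tested. In bulk samples, fewer cells of a type and less RNA per cell cannot be told apart.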

How the data were processed

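RNA was extracted with TriPure and sequenced from an Illumina stranded mRNA kit in 6 libraries, per the labels' protocols. The values deposited by the authors are raw read counts for each gene, in 3 strand columns and 4 summary lines, in the layout of STAR's gene counting. STAR 2.53a (written so), FastQC and the build hg18 are named, per the submitters' processing notes; annotation and trimming are not given in the sources used here. Reverse-strand counts were used, and the summary lines were left out of library sizes: unmapped reads made up 1.22% to 1.67%, multimapping reads 6.48% to 8.42%, reads outside genes 14.8% to 17.7% and ambiguous reads 0.835% to 1.01%. Multimapping reads are in no gene's count, which lowers genes with similar copies.

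Groups came from the sample titles. filterByExpr (minimum count 10) kept 14582 of 23686 genes, which were scaled by TMM and tested with edgeR 4.0.16 in R 4.3.3 (quasi-likelihood F test, group only, adjusted p threshold 0.05, common biological coefficient of variation 0.0835). SEs are the absolute log2 fold change over the square root of F. Other settings used DESeq2 1.42.0, limma 3.58.1, other scalings and filters, a replicate block, counts without regard to strand, a strand class term and leaving out each library. The strand class split libraries at 1% forward reads, the median over the 4931 genes that reached 1000 reads throughout. The code was tested on simulated counts in which 197 tested genes had a log2 fold change of 1 in either direction. Of these, 91.4% were recovered, and 8.16% of the calls at the 0.05 threshold were false. Smaller changes were not simulated. Members, lists, settings and motifs were chosen with earlier results of these data known. Named genes are the members, 14 fixed counterparts, up to 6 called genes per list and the 5 genes most like the members. PROCR, HSPA5, SOCS3, IFNLR1, USP18, IFNAR1, MICA, MICB, CIITA, HLA-DRA, HLA-DQB1, HLA-DPB1, CD74 and the marker genes fall outside this rule and were named after their values were seen. Values of some listed genes are not reported here. NRDC was matched as NRD1. Counting intervals and floors cover counting error only. Within groups the chi-square per degree of freedom over genes was 4.72 to 18.7 for all pairs of libraries. No pair was therefore treated as repeat sequencing of the same library, and each library was counted as a separate sample. This spread cannot tell separate cultures from separate preparations of the same culture.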

Additional observations from a re-analysis of the deposited data

How the results depend on the processing

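In all 15 other settings 0 members had an adjusted p under 0.05, and the median log2 fold change of the members was below 0. Leaving out 1 library at a time moved that median between -0.25 and -0.06, the latter without control 1. The number of genes past the threshold, 704, fell to 164 with the replicate block and to 29 with strand class added to the model, and ran from 65 (without control 2) to 3069 (without control 1) over the fits that left out 1 library. Scaling by total counts gave 310 higher and 572 lower genes against 388 and 316, and moved the median of all genes to -0.04. The number of pathway list genes past the threshold, 14, became 27 in DESeq2 and 0 with the strand class, and ran from 0 (without co-culture library 2) to 35 (without control 1). Same-numbered libraries did not deviate together (correlations of -0.07, -0.19 and -0.18 over 11647 genes), so the numbers were not read as pairs; with the replicate block 0 members and 10 pathway genes passed, and IRF7, IRF9, HLA-DOA, RAET1G, OASL and LUM lost their calls. Estimates near 0 changed sign: ERAP1 (-0.021) and NLRC5 (-0.0075) with total counts, PSMB7 (0.019) in counts without regard to strand, and PDIA3 (-0.034) with the strand class. Over the fits that left out 1 library, HLA-B ran from -0.34 to 0.0031, HLA-F from -0.23 to 0.055, CANX from -0.024 to 0.10, PDIA3 from -0.0014 to 0.081, ERAP1 from -0.0060 to 0.035, PSMB7 from -0.084 to 0.010, CALR from -0.11 to 0.0071 and NLRC5 from -0.017 to 0.050. The log2 difference of the PSMB8 to PSMB5 ratio ran from -0.90 to -0.32, and that of PSMB9 to PSMB6 from -0.57 to 0.03. The cause of these shifts was not tested. PSMB8 and PSMB9, with at most 59 reads per library, had the widest intervals of the members.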

Other observations

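Class II presentation and ligands of the natural killer receptor NKG2D were also measurable in these cells. Of 13 class II genes, 11 were tested, and 1 was lower and 0 higher past the threshold, against 2.17% lower and 2.66% higher among all tested genes. Their median log2 fold change was -0.25, and it was -0.00024 without control 1. HLA-DOA, which modulates class II peptide loading, stood at 5.85, 6.13 and 6.29 CPM in co-culture and at 8.49, 9.02 and 8.98 CPM in the controls, with a log2 fold change of -0.53 (edgeR adjusted p 0.0338, SE 0.12). It was -0.56 without control 1 (edgeR adjusted p 0.00367; range over 15 settings 0.00367 to 0.287), and the call was lost with strand class added to the model, with the replicate block and without any 1 of the other 5 libraries. The class II transactivator CIITA had 0 reverse-strand reads in all 6 libraries, which allows up to 0.0838 to 0.156 CPM depending on the library. HLA-DRA and CD74, which professional presenting cells express highly, stood at or below 0.101 and 0.455 CPM. Not all class II genes were this low: over the 6 libraries HLA-DQB1 ran from 30.0 to 37.8 CPM and HLA-DPB1 from 26.0 to 36.8 CPM.

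Of 8 NKG2D ligand genes, 6 were tested, and 1 was lower and 0 higher past the threshold, against 2.17% lower and 2.66% higher among all tested genes. RAET1G stood at 1.75, 1.85 and 1.65 CPM in co-culture and at 3.44, 3.70 and 3.45 CPM in the controls, with a log2 fold change of -1.02 (edgeR adjusted p 0.0151, SE 0.18), and the controls stood close together. It belongs to a family of similar genes, so the assignment of its reads is uncertain, and the call was lost with strand class added to the model (edgeR adjusted p 0.258), with the replicate block, and without co-culture library 1, 2 or 3 or control 2. MICA and MICB, ligands known to be stress-inducible, stood at 0.07 and 0.0044 on the log2 fold change scale (edgeR adjusted p 0.577 and 0.977).

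Of the class I-like genes, PROCR, the endothelial protein C receptor, was the 1 tested gene with a positive estimate over all 6 libraries, at 19.1, 18.8 and 19.6 CPM in co-culture and 16.8, 14.4 and 15.4 CPM in the controls (log2 fold change 0.30, SE 0.09, edgeR adjusted p 0.0750).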
